A study of Homo sapiens with 60 samples.

Results

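The 86 genes described here encode parts of the mitochondrial machinery for oxidative phosphorylation from the nuclear genome. They are all genes, among the 29744 of a gene count table, whose symbols begin as those of complex I (NDUFA, B, C, S or V and a number), complex II (SDHA to SDHD), complex III (UQCR), complex IV (COX4 to COX8 with an isoform letter A, B or C) or complex V (ATP5). Of the 86, 78 are subunits of a complex; the others are copies of subunit genes, a readthrough gene, a factor of respiratory supercomplexes and genes that share the name only. A total of 81 members, 73 of them subunits, had enough counts to be tested, among 11298 tested genes.

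Oxidative phosphorylation passes electrons from NADH (complex I) and succinate (complex II) through ubiquinone to complex III, cytochrome c and complex IV, where oxygen is reduced. Complexes I, III and IV pump protons across the inner mitochondrial membrane, and complex V, the ATP synthase, uses their return flow to make ATP. Complex II is encoded by nuclear genes alone, while the other complexes also contain subunits made from mitochondrial DNA, whose genes were not analysed here.

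Transcripts were counted in HCT116 spheroids, which are rounded aggregates of a cell line from a human colorectal tumour. The 60 libraries form 12 groups of 5. Spheroids were untreated or were exposed from day 1 to day 8 to 1 µM butyrate, 0.1 µM hemin, 1 µM kynurenine, 1 µM kynurenic acid, or 0.1 µM hemin together with 1 µM kynurenine, and each of these 6 treatments was sampled in Medium 1 and in Medium 2. Butyrate is a short-chain fatty acid of gut bacteria, hemin an oxidised iron porphyrin, and kynurenine and kynurenic acid are products of tryptophan breakdown. According to the design, RNA was taken from part of the spheroids at once and from the others after 3 h in medium poor in nutrients. The labels do not tell which of these is Medium 1 and which Medium 2, since a further label reads nutrient-rich and untreated for all 60 samples, and every difference between media below is a difference between these names. The cells are 1 established line. The labels call the 5 samples of a group biological replicates and say no more of their origin, and p-values rest on the spread among them, which may be technical.

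Libraries were made with a 3′-end method and unique molecular identifiers, a design in which a level is not meant to grow with transcript length; whether the deposited counts were reduced to unique molecules is not stated in the labels. Totals ran from 1417045 to 3083231 counts in Medium 1 and from 1346135 to 2981625 in Medium 2. Levels are given as CPM, counts scaled to the library total, with the scaling factors of the model. The media filled separate stretches of the plate, and within them each of the 12 groups filled its own run of neighbouring wells. Neither medium nor exposure can therefore be told apart from plate position. Of 8 epithelial markers, 6 reached 1 CPM, with summed levels of 1160 to 1700 CPM in Medium 1 and 1160 to 1500 CPM in Medium 2, while summed markers of fibroblasts, immune, endothelial and muscle cells stayed at or below 14.5 CPM in every library. In bulk RNA, fewer cells of a type and less RNA per cell cannot be told apart. Libraries differed in how GC-rich transcripts stood against GC-poor ones: the log2 contrast of these sets ran from -0.15 to 0.52 in Medium 1 and from -0.22 to 0.49 in Medium 2, and the highest values belonged to the butyrate library of well B2 in Medium 1 (0.52), the kynurenine library of well A7 in Medium 2 (0.49) and the hemin library of well F2 in Medium 1 (0.40).

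The stretches before the starts of 4 member genes illustrate the motifs searched for, and were chosen because they hold matches, which most members lack for each motif. They are shown because the members below are compared as a group, and because the binding sequences of NRF1, ETS-family factors such as GABPA, and YY1 are classical features of nuclear genes for respiration. Each holds the 250 bases before the RefSeq start in GRCh38.p14, written 5′ to 3′ on the gene's strand, with capitals marking matches on either strand to GCGCANGCG (NRF1), CCGGAAG (ETS) or AAGATGGCG (YY1).
ATP5J (ATP5PF), chr21:25735055-25735304, minus strand: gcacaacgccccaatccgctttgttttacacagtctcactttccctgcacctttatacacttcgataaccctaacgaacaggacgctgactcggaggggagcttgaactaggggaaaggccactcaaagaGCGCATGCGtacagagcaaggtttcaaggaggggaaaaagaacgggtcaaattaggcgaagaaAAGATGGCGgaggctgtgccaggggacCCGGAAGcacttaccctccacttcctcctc
UQCRH, chr1:46303448-46303697, plus strand: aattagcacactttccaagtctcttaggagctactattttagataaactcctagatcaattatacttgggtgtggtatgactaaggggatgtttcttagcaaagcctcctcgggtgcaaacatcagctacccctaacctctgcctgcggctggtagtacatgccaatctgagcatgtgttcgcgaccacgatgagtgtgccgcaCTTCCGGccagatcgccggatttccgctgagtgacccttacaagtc
NDUFB4, chr3:120596086-120596335, plus strand: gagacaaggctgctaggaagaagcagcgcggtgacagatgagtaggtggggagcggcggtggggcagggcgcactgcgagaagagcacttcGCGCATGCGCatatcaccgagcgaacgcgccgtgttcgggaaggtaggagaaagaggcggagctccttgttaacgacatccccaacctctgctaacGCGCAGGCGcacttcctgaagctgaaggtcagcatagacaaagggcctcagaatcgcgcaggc
SDHA, chr5:218070-218319, plus strand: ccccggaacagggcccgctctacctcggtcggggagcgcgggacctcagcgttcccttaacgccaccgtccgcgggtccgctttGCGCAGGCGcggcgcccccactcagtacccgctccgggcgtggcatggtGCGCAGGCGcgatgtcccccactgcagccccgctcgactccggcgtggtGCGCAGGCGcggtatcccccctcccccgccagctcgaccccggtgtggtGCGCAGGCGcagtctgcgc

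Unlike the other stretches, that of ATP5J lies inside the gene's annotated span, chr21:25724500-25735653. It thus precedes a start within this span and not the outermost one. Over windows of 300 bases that reach 50 bases past the start, SDHA held 4 NRF1 matches and NDUFB4 held 3, while ATP5J held 1 match each to NRF1, ETS and YY1 and UQCRH 1 to ETS. The NRF1 letters stood in 20 of the 63 tested members with a promoter sequence (31.7%), against 16% of 9001 genes. The ETS letters stood in 28.6% of member promoters against 20.8% of all, the YY1 letters in 12.7% against 4.37%, and the SP1 letters GGGCGGGG in 22.2% against 40.7%. These are counts of letters and show no binding. The median log2 fold change between media, described below, was 0.115 over the 20 members with an NRF1 match and 0.186 over the 43 without one. For ETS it was 0.171 with and 0.148 without a match, for YY1 0.144 and 0.177, and for SP1 0.126 and 0.178. These differences were not tested. NDUFB4, ATP5J and UQCRH were called higher in Medium 2, and SDHA, with the most NRF1 matches of those shown, was not called.

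The members were among the more abundant transcripts of these cells. Their summed level ran from 14420 to 18920 CPM over the 30 Medium 1 libraries (median 16790) and from 17400 to 25080 CPM over the 30 Medium 2 libraries (median 19720). The most abundant was ATP5G3, a gene for the c subunit that forms the rotating ring of ATP synthase, with a mean of 1408 CPM over all libraries. UQCRB, a small subunit of complex III, followed at 1358 CPM and ATP5L, the ATP synthase g subunit, at 971 CPM. At the other end of the tested subunits, the complex I subunits NDUFS7 and NDUFB7 and the ATP synthase delta subunit ATP5D lay at 13.5, 13.6 and 13.6 CPM. The spread of levels thus covered more than 2 orders of magnitude among genes whose products enter the same complexes in fixed ratios.

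Complex IV used the isoforms of most tissues. COX6A1 had a mean of 267.8 CPM while its heart and muscle counterpart COX6A2 had no count in any library, and COX7A2 had 388.7 CPM while its muscle counterpart COX7A1 had none. A count of 0 allows a level of up to 0.0256 CPM over the pooled libraries, and covers counting error only. COX6B1 stood at 123.9 CPM against 61 counts in all for the testis isoform COX6B2, and COX8A at 209.5 CPM against 36 counts for COX8C. COX7B2 had 2 counts. These 5 tissue-restricted isoforms are the members that could not be tested.

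Averaged over the 6 treatments, 54 of the 81 tested members were higher in Medium 2, 1 was lower and 26 were not called. Over all tested genes 22.8% were called higher and 23.3% lower, so calls were common in this comparison of 30 with 30 libraries, and among genes of at least 50 CPM 40.2% were called higher against 48 of the 68 members at that level. The members' median log2 fold change was 0.183 and that of all tested genes -0.005. A call is a Benjamini-Hochberg adjusted p under 0.05 over all tested genes in edgeR's quasi-likelihood model, and the differences were small: the largest among those called was 0.56 on the log2 scale. Members are short genes, and short genes as a class moved the same way: of all tested genes with transcripts of 323 to 645 bases, 51.8% were called higher with a median of 0.183, against 21 of 27 members of that length with a median of 0.201. With library totals alone as the scaling, the all-gene median fell from -0.005 to -0.119, the share of calls that were higher from 49.4% to 24%, and the members' counts became 29 higher and 6 lower, with a median of 0.068. Of all 11298 tested genes, 11.6% were then called higher and 4162 genes lower, beside these 29 and 6 of 81 members.

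**Figure D1:**
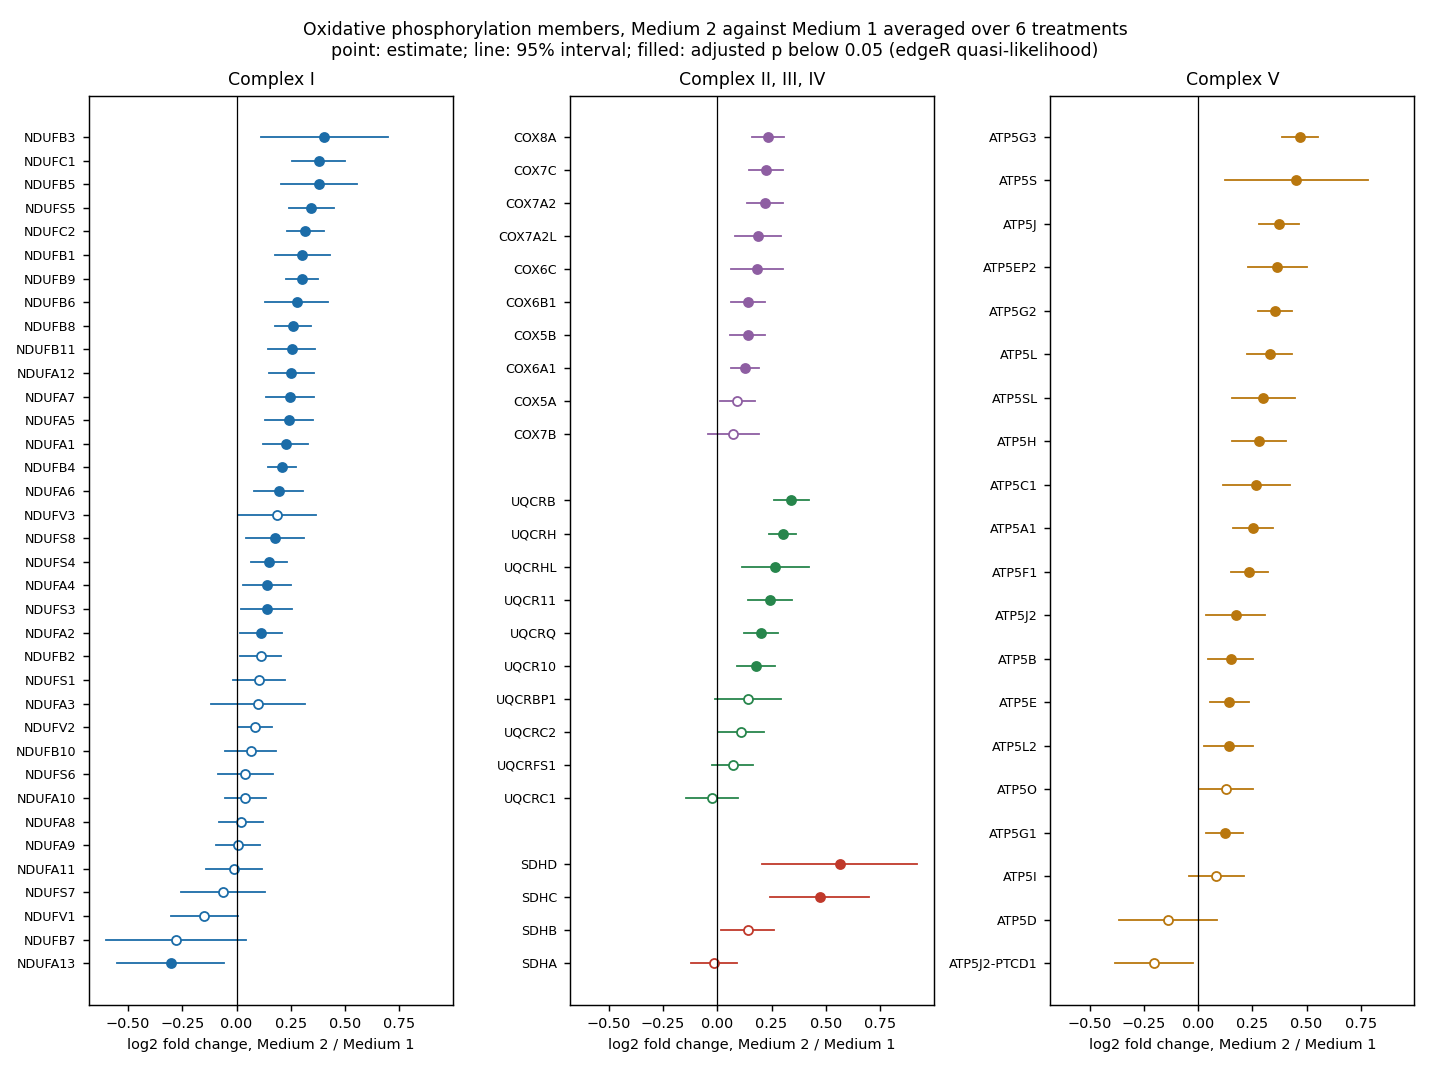
Log2 fold change of 80 tested members between Medium 2 and Medium 1, averaged over 6 treatments, by complex; points are estimates, lines 95% intervals, and filled points have an adjusted p under 0.05. Most points lie between 0 and 0.5, the 9 negative ones include 5 of complex I, and NDUFA13 is the filled point below 0.

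In complex V, the ATP synthase, 16 of 20 members were higher and none was called lower. For the c ring, 3 genes, ATP5G1, ATP5G2 and ATP5G3, encode the same mature protein with different import sequences, and all 3 were higher: ATP5G3 had the largest and ATP5G1 the smallest change of the called members of complex V. ATP5G3 (chr2:175176258-175181710) ran from 911 to 1405 CPM in Medium 1 (median 1193) and from 1201 to 2111 CPM in Medium 2 (median 1611), with a log2 fold change of 0.47 (SE 0.04, edgeR adjusted p = 1.19e-14), the smallest p of all members. ATP5G2 (chr12:53665170-53681423) ran from 214 to 303 CPM (median 257) and from 275 to 397 CPM (median 333), a change of 0.36 (SE 0.04, edgeR adjusted p = 2.32e-11). ATP5G1 (chr17:48892787-48895871) ran from 156 to 239.6 CPM (median 183.6) and from 169.5 to 285.6 CPM (median 205), a change of 0.12 (SE 0.04, edgeR adjusted p = 0.0156) that was not called with library totals alone (0.007, adjusted p = 0.902). For all 3 genes the ranges of the media overlapped, ATP5G1 the most.

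The peripheral stalk, which holds the F1 head still against the turning ring, had 3 of 4 members called: ATP5J at 0.37 (SE 0.05, edgeR adjusted p = 9.29e-10), ATP5F1 and ATP5H, while ATP5O was not. ATP5J levels ran from 267 to 425 CPM in Medium 1 (median 337.5) and from 368 to 559.6 CPM in Medium 2 (median 434), with an overlap in the middle of the range. Of the 5 genes of the F1 head and central stalk, where ATP is made, ATP5A1, ATP5B, ATP5C1 and ATP5E were higher, by 0.14 to 0.27 on the log2 scale. ATP5D, the delta subunit, had -0.14 (SE 0.11, edgeR adjusted p = 0.322). Among membrane accessory subunits ATP5L (0.33) and ATP5J2 (0.17) were called and ATP5I (0.08, edgeR adjusted p = 0.281) was not. ATP5EP2 and ATP5L2, copies of subunit genes, and ATP5SL and ATP5S, which are no subunits, were also called higher; reads of such copies may be shared with the parent gene.

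Among the subunits of complex III, those called were the small ones. All 5 small subunits were higher: UQCRH, the hinge protein beside cytochrome c1, UQCRB, UQCRQ, UQCR10 and UQCR11, by 0.18 to 0.34. UQCRH (chr1:46303698-46316776) ran from 476 to 692 CPM in Medium 1 (median 576) and from 631 to 809 CPM in Medium 2 (median 714), a change of 0.30 (SE 0.03, edgeR adjusted p = 3.64e-12). The ranges shared the stretch from 631 to 692 CPM. UQCRB changed by 0.34 (SE 0.04, edgeR adjusted p = 3.57e-10) and UQCRQ by 0.20 (SE 0.04, edgeR adjusted p = 1.86e-05). The iron-sulfur subunit UQCRFS1, which carries electrons, had 0.07 (adjusted p = 0.223), and the core proteins UQCRC1 and UQCRC2 had -0.02 (adjusted p = 0.766) and 0.11 (adjusted p = 0.0891). The difference between small and large subunits was not tested.

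In complex IV, cytochrome c oxidase, 8 of 10 tested members were higher, by 0.13 to 0.23, and all 10 estimates were positive. COX8A, COX7C and COX7A2, small subunits around the catalytic core, had the smallest p values, with 0.23, 0.23 and 0.22 (SE 0.04 each; edgeR adjusted p = 3.98e-07, 3.77e-06 and 9.67e-06). COX8A levels ran from 166 to 223 CPM in Medium 1 (median 190.4) and from 186 to 263 CPM in Medium 2 (median 229). COX6A1 (0.13) and COX6B1 (0.14) were called as well. COX5A (0.09, adjusted p = 0.055) and COX7B (0.07, adjusted p = 0.313) were not. COX7A2L, a factor of respiratory supercomplexes, had 0.19 and was called.

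Complex II, which is also an enzyme of the tricarboxylic acid cycle, held the largest called change and one of the smallest values side by side. The membrane anchors SDHC and SDHD were higher by 0.47 (SE 0.11, edgeR adjusted p = 4.76e-04) and 0.56 (SE 0.18, edgeR adjusted p = 0.00724). The catalytic subunits were not called: the iron-sulfur protein SDHB had 0.14 (SE 0.06, edgeR adjusted p = 0.0534) and the flavoprotein SDHA -0.01 (SE 0.05, edgeR adjusted p = 0.848). SDHB was called higher without wells B2 and A7 and in 14 of 60 cases with 1 library left out (adjusted p down to 0.0116), and SDHA was called lower with library totals alone (-0.13, adjusted p = 0.0336); the difference between anchors and catalytic subunits was not tested. SDHA ran from 76 to 142 CPM in Medium 1 (median 97.6) and from 70.7 to 131 CPM in Medium 2 (median 97.2). SDHC ran from 97.2 to 512 CPM (median 319.6) and from 122 to 606 CPM (median 439), and SDHD from 3.06 to 64.9 CPM (median 23.4) and from 6.51 to 70.7 CPM (median 36.5). The anchors thus varied more widely within each medium than SDHA did. The lowest SDHC values came from libraries on the GC-rich side: F2 of hemin in Medium 1 had 97.2 CPM (GC contrast 0.40), F4 of hemin plus kynurenine in Medium 1 116 CPM (0.19) and A7 of kynurenine in Medium 2 122 CPM (0.49). These wells also had the 3 lowest SDHD values, and the part of the GC contrast in the result was not tested.

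Complex I, the largest complex, had 22 of 37 members higher and 1 lower. Among the 11 subunits of the B series, which sit in the membrane arm, 8 were higher, led by NDUFB9 (0.30, SE 0.04, edgeR adjusted p = 9.36e-10) and NDUFB4 (0.21, SE 0.03, edgeR adjusted p = 1.59e-07). NDUFB9 ran from 357.5 to 527 CPM in Medium 1 (median 444) and from 449 to 736 CPM in Medium 2 (median 552). Of the 18 other accessory subunits 10 were higher, among them NDUFC2 (0.32, SE 0.04, edgeR adjusted p = 1.05e-08) and NDUFS5 (0.35, SE 0.05, edgeR adjusted p = 1.45e-07). Of the 7 core subunits, which bind the flavin and the iron-sulfur clusters, 3 were called, among them NDUFS8 (0.18) and NDUFS3 (0.14). NDUFV1, which carries the flavin, had -0.15 (adjusted p = 0.11) and NDUFS7 -0.06 (adjusted p = 0.619). NDUFA9 had the largest p of the complex at 0.01 (adjusted p = 0.914). NDUFA4, long counted with complex I and now assigned to complex IV, was higher by 0.14 (adjusted p = 0.0358).

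NDUFA13, also known as GRIM-19 and named here after its value was seen, was the member called lower, by -0.30 on the log2 scale (SE 0.12, edgeR adjusted p = 0.0368). Its levels ran from 35.1 to 91.2 CPM in Medium 1 (median 65.2) and from 16.2 to 98.1 CPM in Medium 2 (median 57.7), so that the Medium 2 range held the whole Medium 1 range. Leaving out 1 library ended the call in 14 of 60 cases, with adjusted p up to 0.055.

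**Figure D2:**
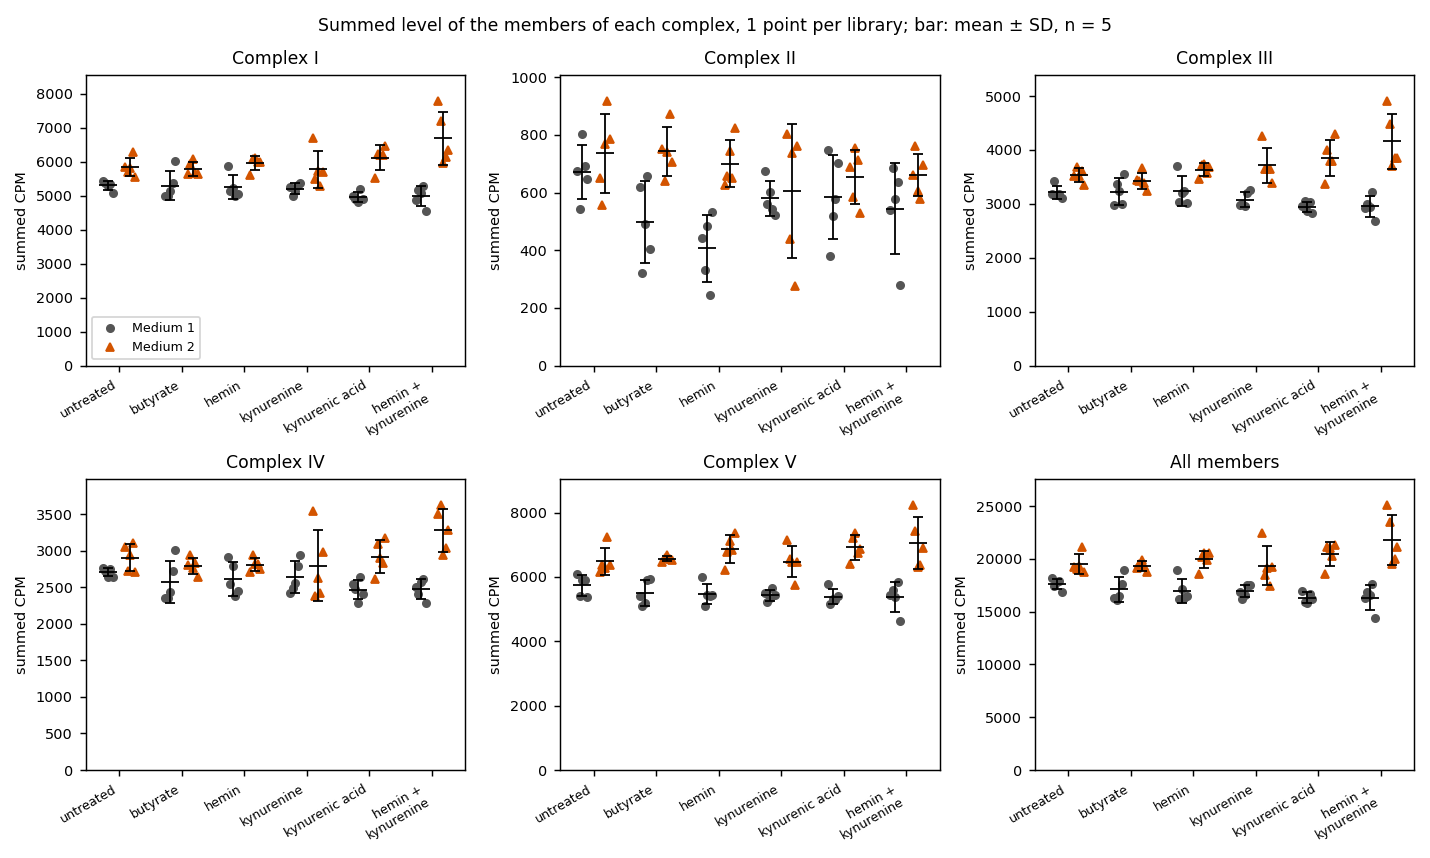
Summed CPM of the members of each complex (y axis, from 0) in every library of the 12 groups (x axis), circles for Medium 1 and triangles for Medium 2, with mean and SD of 5 libraries. For complex V the triangles of each treatment all lie above its circles, whereas the complex II sums overlap in 5 of 6 treatments.

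Summed levels show how far single libraries followed these estimates. In untreated spheroids the complex V sum ran from 5390 to 6101 CPM in Medium 1 and from 6159 to 7232 CPM in Medium 2, and in each of the 6 treatments all 5 Medium 2 libraries lay above all 5 Medium 1 libraries. Complex I and complex III sums were separated in this way in 3 of 6 treatments each, complex IV in 1 and complex II in 1. For comparison, the sum of cytosolic ribosomal protein genes was separated in 4 of 6 treatments, and that of mitochondrial ribosomal protein genes in 2. ATP5G3 alone held 911 to 2111 CPM of the complex V sum. The complex II sum was the least steady, with 246 to 533 CPM under hemin in Medium 1 against 626 to 824 CPM under hemin in Medium 2.

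Within single treatments, where 5 libraries met 5, between 1 and 45 members were called higher. In untreated spheroids ATP5G3 was the 1 member called higher and none was called lower, where 2.69% and 3.69% of all tested genes were (4.84% higher among genes of at least 50 CPM); 9 members (11.1%) had an unadjusted p under 0.05, against 19.1% of all tested genes. Its 5 Medium 1 libraries held 1104, 1175, 1243, 1243 and 1375 CPM and its 5 Medium 2 libraries 1355, 1521, 1545, 1592 and 1764 CPM, a change of 0.34 (SE 0.10, edgeR adjusted p = 0.0286). A single pair of libraries overlapped. The call was lost without well B1 or E1 of Medium 1 or B5 or C5 of Medium 2 (adjusted p of 0.0502 to 0.0991).

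Butyrate gave 4 members higher in Medium 2 (background 4.51%, and 8.07% of genes of at least 50 CPM; no member was lower, background 5.37%): ATP5G3 at 0.52, ATP5G2 at 0.39, UQCRH at 0.28 and NDUFA7, a complex I accessory subunit, at 0.59. Kynurenine gave 9 (background 3.73%, at least 50 CPM 7.24%; none lower, background 4.28%), among them ATP5G3, UQCRB (0.45), UQCRH (0.26) and NDUFC2 (0.37). Without 1 library these counts reached 7 (without F1) and 10 (without A2) for butyrate, and fell to 3 (without A3), 4 (without D3) and 5 (without A7) for kynurenine. Kynurenic acid gave 19 (background 4.3%, at least 50 CPM 9.07%; none lower, background 4.26%), with 9 of complex I, 4 of complex III, 2 of complex IV and 4 of complex V. Its smallest p values were those of ATP5G2 (0.48, SE 0.10, edgeR adjusted p = 5.24e-04) and UQCRH (0.37, SE 0.08, edgeR adjusted p = 6.60e-04); the count was 11 without A4 and 10 without G7.

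Hemin gave 21 members higher and 2 lower, where 12.6% of tested genes were higher (23.8% of those of at least 50 CPM) and 11.4% lower. ATP5G3 had 911, 995, 1076, 1177 and 1226 CPM in Medium 1 and 1571, 1662, 1743, 1966 and 2111 CPM in Medium 2, a change of 0.75 (SE 0.10, edgeR adjusted p = 2.37e-07) with a wide gap between the groups. NDUFC1, an accessory subunit of complex I, changed by 0.85 (SE 0.15, edgeR adjusted p = 5.13e-05), and SDHC by 1.22 (SE 0.28, edgeR adjusted p = 0.00121). The lower members were NDUFS6 (-0.47, SE 0.16, edgeR adjusted p = 0.02), an accessory subunit that binds zinc, and UQCRFS1 (-0.32, SE 0.12, edgeR adjusted p = 0.0348). The hemin libraries of Medium 1 stood on the GC-rich side, with contrasts of 0.06 to 0.40 against -0.09 to 0.09 in the hemin libraries of Medium 2; the part of this in these calls was not tested.

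Hemin plus kynurenine gave the most, 45 members higher and none lower. Of all tested genes 8.02% were higher (16.4% of genes of at least 50 CPM) and 8.32% lower. Every Medium 2 library of this treatment had a higher total (2151092 to 2981625 counts) than every Medium 1 library (1820159 to 2147635). Library total and medium thus cannot be told apart in this comparison. The calls covered 20 of 37 members of complex I, 7 of 10 of complex III, 9 of 10 of complex IV and 9 of 20 of complex V, but 0 of 4 of complex II, 1 of which had an unadjusted p under 0.05 (30.3% of all tested genes did). NDUFS5, an accessory subunit of complex I, had 325, 350, 368, 391 and 404 CPM in Medium 1 and 476, 512, 528, 693 and 857 CPM in Medium 2, a change of 0.74 (SE 0.13, edgeR adjusted p = 3.84e-05). Every Medium 2 value was above every Medium 1 value, and wells H7 and A8 stood above the other 3. UQCRB changed by 0.56 (adjusted p = 5.73e-05), NDUFB9 by 0.50 (adjusted p = 9.33e-05), COX7C by 0.52 (adjusted p = 1.13e-04) and NDUFB8 by 0.53 (adjusted p = 1.98e-04) by the same test.

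**Figure D3:**
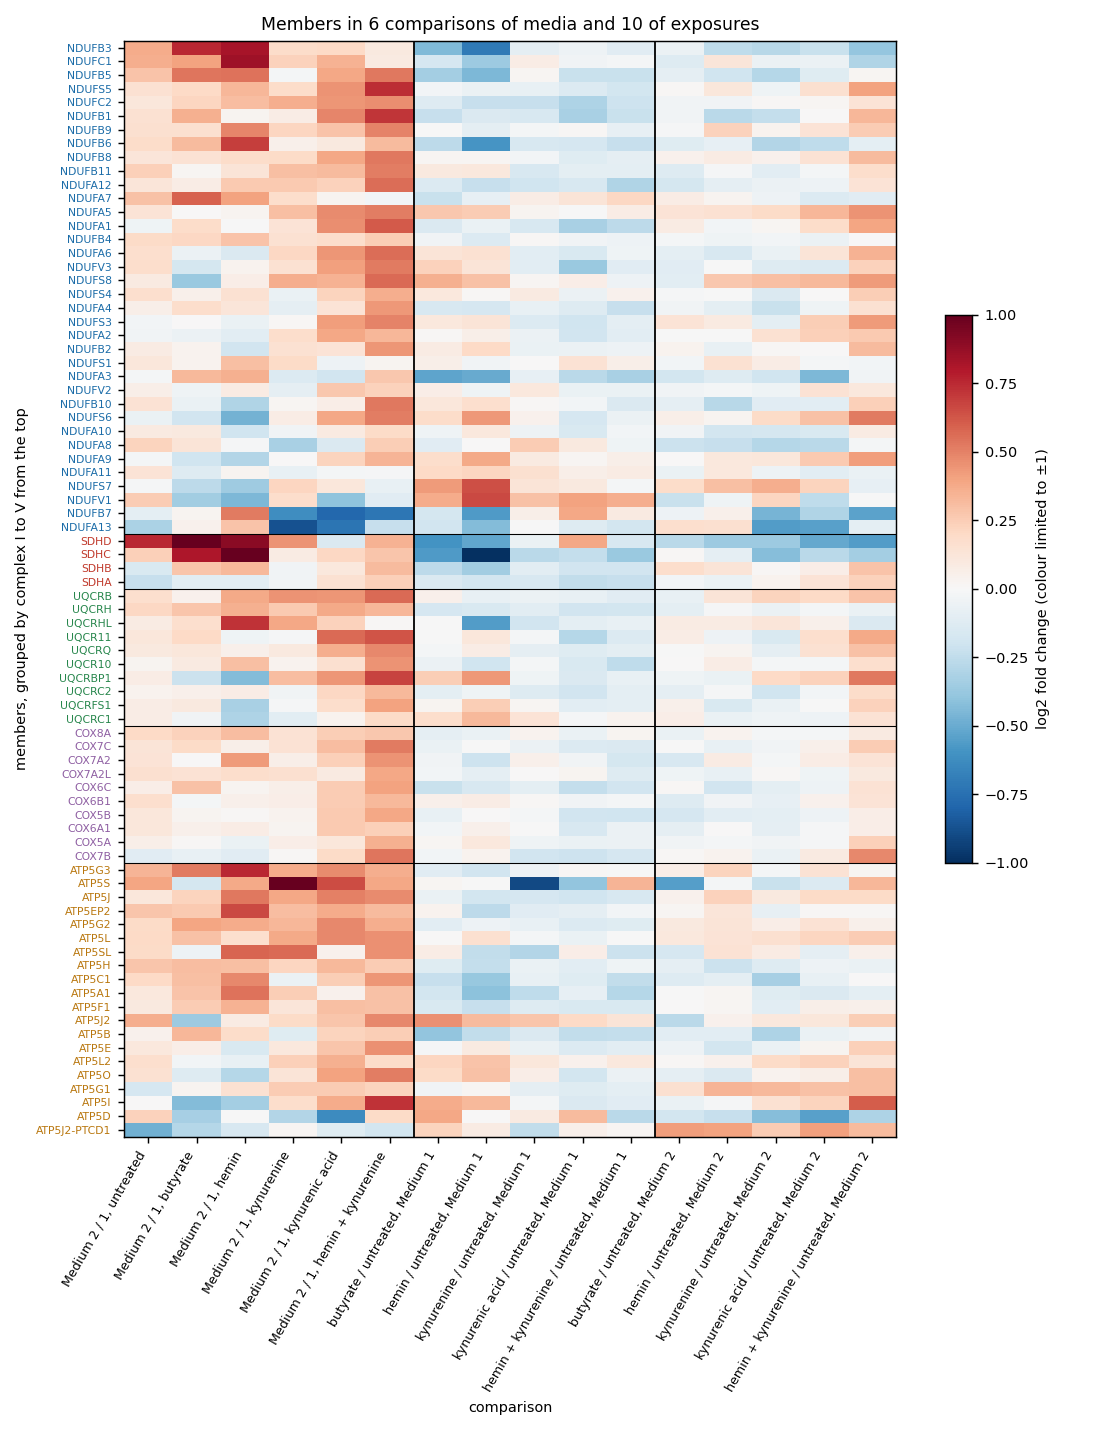
Log2 fold changes of 80 tested members (rows, grouped by complex) in the 6 comparisons of media and the 10 comparisons of exposures with untreated spheroids (columns). Red marks higher and blue lower, and colours are limited to ±1; the column for hemin plus kynurenine is red for 73 of 80 members, and the column for hemin has 55 red and 25 blue.

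The 6 comparisons share no library. ATP5G3 was called in all 6, ATP5G2 and UQCRH in 5, and ATP5J, NDUFC2 and UQCRB in 4, while 28 members were called in 1 treatment and 27 in none. No share over all tested genes is given for these counts, so they do not tell whether members recurred more than other genes. Signs agreed more than calls did: 33 of 81 members had a positive value in every treatment, against 15% of all tested genes. No member was negative in every one, a count for which no share over all genes is given. No member separated the 30 Medium 2 libraries from the 30 Medium 1 libraries without overlap, as 0.0885% of tested genes did. Within a treatment, all 5 Medium 2 libraries lay above all 5 Medium 1 libraries for 39 of the 81 members with hemin plus kynurenine (5.87% of tested genes), 18 with hemin (6.88%) and 17 with kynurenic acid (4.57%), but for 5 with butyrate (3.85%), 2 with kynurenine (2.32%) and 1 without treatment (3.99%).

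**Figure D4:**
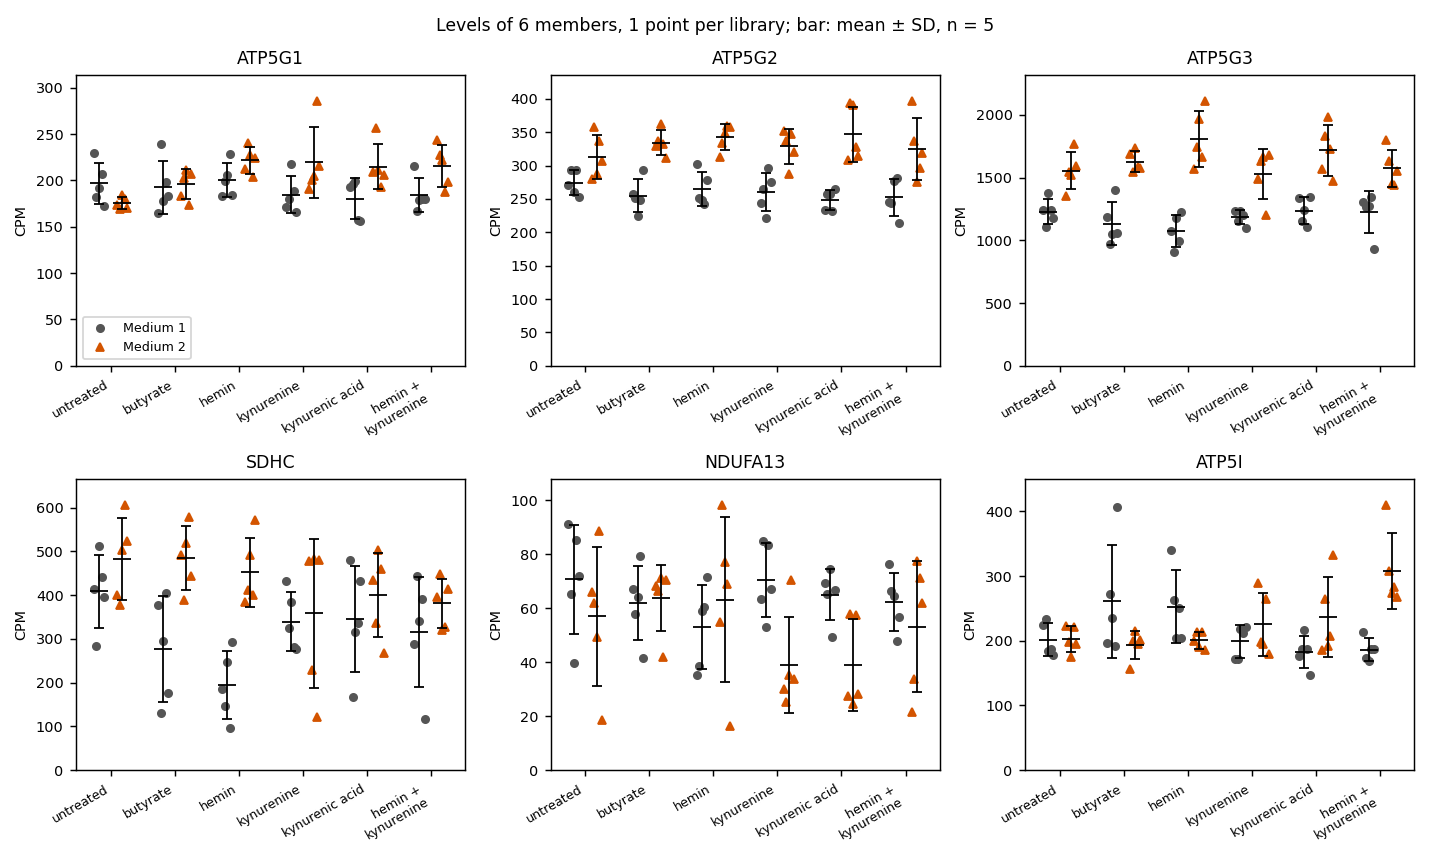
CPM of 6 members (y axes, from 0) in each library of the 12 groups, circles for Medium 1 and triangles for Medium 2, with mean and SD of 5 libraries. ATP5G3 and ATP5G2 were higher in Medium 2 with little overlap, ATP5G1 overlapped in all treatments, SDHC and NDUFA13 spread widely within groups, and ATP5I was highest with hemin plus kynurenine in Medium 2 and in single libraries elsewhere.

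Hemin and hemin plus kynurenine differed in how members responded to the medium. Chosen after these values were seen, the difference of both responses was tested in the same model: 15 members had a larger response with the combination and 1 a smaller one, where 3.12% and 2.04% of tested genes did. ATP5I changed by -0.34 between media with hemin and by 0.73 with the combination, a difference of 1.06 (SE 0.22, edgeR adjusted p = 0.00856). NDUFS6 went from -0.47 to 0.51, a difference of 0.99 (SE 0.22, edgeR adjusted p = 0.0091), and UQCRFS1 from -0.32 to 0.40, a difference of 0.72 (SE 0.16, edgeR adjusted p = 0.0106). NDUFC1 was the member with the smaller response, 0.85 with hemin and 0.09 with the combination (edgeR adjusted p = 0.0305). The 16 members became 3 without C2, 7 without D2, 7 without C4 and 7 without H7, the first a hemin library and C4 a combination library of Medium 1. The GC contrast moved with these groups. In Medium 1 it was 0.06 to 0.40 (median 0.18) with hemin and -0.11 to 0.19 (median -0.07) with the combination. C2 stood at 0.24 and H7 at 0.29. Library totals in Medium 2 were 1346135 to 1824740 counts with hemin and 2151092 to 2981625 with the combination. The part of the GC contrast and of the totals in the difference was not tested.

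The UQCRFS1 values show which libraries stood apart. With hemin it held 208, 273, 299, 309 and 315 CPM in Medium 1 and 209.6, 219, 226, 234 and 234 CPM in Medium 2. With the combination it held 196, 204, 211, 232 and 264 CPM in Medium 1 and 264, 264, 301, 309.9 and 322 CPM in Medium 2. Both the Medium 1 hemin libraries and the Medium 2 combination libraries were thus high, and G2 was the hemin library of Medium 1 that lay with the lower groups. The same G2 had 169 CPM of NDUFS6 where the other 4 had 242 to 342 CPM.

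Against untreated spheroids in the same medium, 1 of 810 tests of members, over 10 comparisons, passed, and 84 (10.4%) had an unadjusted p under 0.05, against 8.17% over all tested genes. That was ATP5I, the e subunit that joins ATP synthase into dimers, with hemin plus kynurenine in Medium 2, where 0.31% of tested genes were called higher and 0.248% lower. ATP5I held 175, 194, 198, 221 and 223 CPM in untreated libraries and 268, 273, 282, 307 and 409 CPM in those of the combination, a change of 0.61 (SE 0.16, edgeR adjusted p = 0.0453). All 5 exposed libraries lay above all 5 untreated ones. The exposed libraries also had the higher totals, 2151092 to 2981625 counts against 1617479 to 1934973 untreated, and the part of this was not tested. The call was lost in 8 of 10 cases when 1 library was left out, with adjusted p up to 0.245 (without H7), and ATP5I was as high elsewhere in single libraries: 407 CPM in the butyrate library B2 and 341 CPM in the hemin library C2 of Medium 1, and 332 CPM in the kynurenic acid library G7 of Medium 2. In this comparison 26 members (32.1%) had an unadjusted p under 0.05, against 13.6% of all tested genes, and the members' median was 0.148 against -0.001 for all genes.

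Hemin in Medium 1 came next, with 21 members (25.9%, against 21.5% of all tested genes) at an unadjusted p under 0.05 and none called, where 0.0443% of tested genes were called higher and 0.0885% lower. SDHC had 97.2, 147, 186, 246 and 292 CPM with hemin and 283, 396, 414, 441 and 512 CPM untreated, a difference of -1.08 (SE 0.28, edgeR adjusted p = 0.0581). Just 1 hemin library reached the lowest untreated one. NDUFV1 differed by 0.66 (SE 0.19, edgeR adjusted p = 0.0581) and NDUFB6 by -0.59 (SE 0.18, edgeR adjusted p = 0.0674). Without the hemin library G2 the calls over all 10 comparisons rose from 1 to 12, 11 of them in this one, with SDHC at -1.27 (adjusted p = 0.00888). The GC contrast of the hemin libraries was 0.06 to 0.40 against -0.09 to 0.08 in the untreated libraries of Medium 1, and its part in these values was not tested.

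In the other 8 comparisons no member was called, with 0 to 7 members (0% to 8.64%, against 3.27% to 8.54% of all tested genes) at an unadjusted p under 0.05 and background calls of 0% to 0.0354% in either direction (0.00885% higher for butyrate in Medium 1, 0.0354% for kynurenine and 0.0266% for hemin plus kynurenine there; in Medium 2, 0.0177% higher and 0.00885% lower for kynurenine and 0.0177% lower for kynurenic acid). In Medium 1 the members' share was above that of all genes in each comparison, for instance 8.64% against 3.27% with kynurenic acid. In Medium 2 it was below in each, for instance 0% against 3.55% with butyrate. Of 80 members drawn, 62 had values below 0 with kynurenic acid and 66 with hemin plus kynurenine in Medium 1. Members' medians lay between -0.118 (kynurenic acid in Medium 1) and 0.005 (kynurenic acid in Medium 2). These comparisons share the untreated libraries of their medium. Tests of whether an exposure changed the response to the medium, relative to untreated spheroids, called no member in 405 tests by edgeR and 1, NDUFA1, by DESeq2, with 63 (15.6%, against 6.93% over all tested genes) at an unadjusted p under 0.05 by edgeR; the background was 0% higher throughout, and lower 0.0177% for kynurenine, 0.0266% for hemin plus kynurenine and 0% for the others. With hemin plus kynurenine 30 members (37%, against 8.68% of all tested genes) had such a p, and the median difference was 0.266 against 0.007 for all genes.

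Which members changed between media varied with their base composition. Over 79 members with a transcript sequence, the log2 fold change averaged over treatments had a Pearson r of -0.5 and a Spearman rho of -0.4 with transcript GC content, across genes that share the same 60 libraries. Over all 10714 genes with a value r was -0.13, and over those of at least 50 CPM 0.06. Of the 27 GC-poorest members (34.4 to 46.9%) 21 were called higher, against 26.7% of all genes in that GC range. Of the 26 in the middle (47.3 to 53.1%) 19 were called higher, against 26.9%. Of the 26 GC-richest (53.5 to 69.3%) 13 were called higher, against 17.1%. All 9 negative members lay among the GC-richest. Of these 9, 5 are on chromosome 19: NDUFA13, NDUFB7, NDUFS7, NDUFA11 and ATP5D, with the other 6 members on that chromosome positive. All genes tested on chromosome 19 had a median of -0.009 and 51.6% negative values. These 9 were picked by sign and no test was made of them. Among them ATP5J2-PTCD1, NDUFS7, NDUFB7, ATP5D and NDUFV1 had low mean levels, from 11 to 25.8 CPM. NDUFA13, UQCRC1, SDHA and NDUFA11 had 58.2 to 118.6 CPM, while ATP5S, NDUFA3 and UQCRHL, at 6.58 to 29.4 CPM, were positive. The part of level was not tested.

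**Figure D5:**
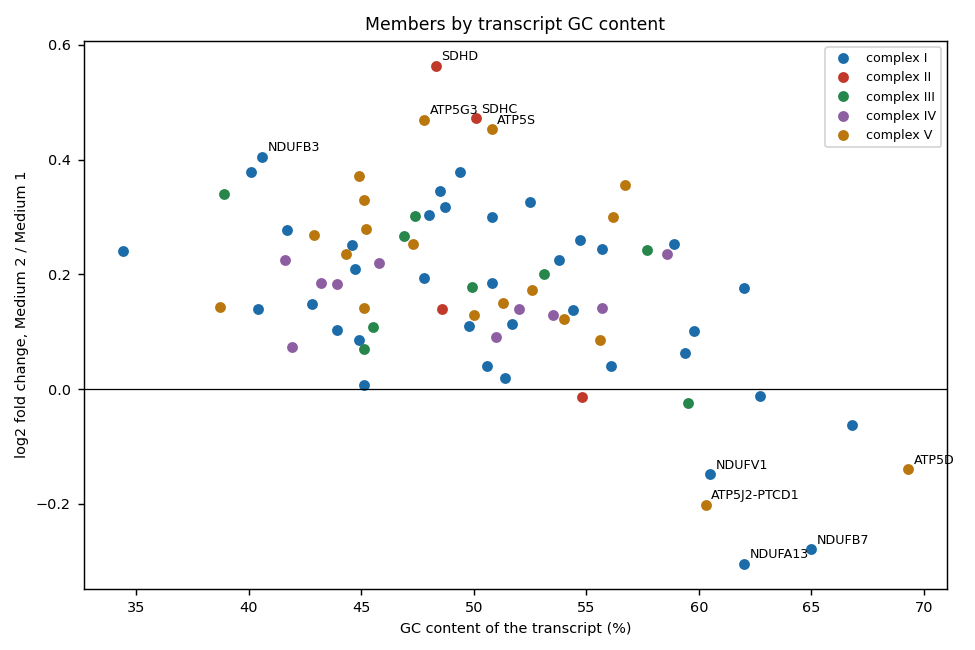
Transcript GC content (x axis, percent) and log2 fold change between media averaged over treatments (y axis) of 79 tested members, coloured by complex. Members below about 53% GC lie above 0, and all 9 negative members lie to the right of that.

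Transcripts of members were short, with a median of 761 bases against 2588 for all tested genes, and 76 of 79 were shorter than the median gene. Transcript length and the log2 fold change had an r of -0.23 over members and -0.2 over all genes. Of the 27 shortest members 21 were called higher, of the next 26 there were 18, and of the 26 longest 14. All genes of those length ranges had 51.8%, 39.1% and 23% called higher.

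Genes that act beside the members did not move as one group. Of 4 tested genes for subunits outside the naming rule and for cytochrome c, 3 were higher: COX4I1, the regulatory subunit of complex IV, by 0.23 (SE 0.04, edgeR adjusted p = 3.66e-06), NDUFAB1 by 0.19 and CYCS, cytochrome c, by 0.15. CYC1, cytochrome c1, had 0.06 (adjusted p = 0.31). Of assembly factors, 3 of 15 for complex I were higher and 3 lower, with NDUFAF3 at 0.32 and TIMMDC1 at -0.37; for complex II 1 of 2 was higher, for complex III 2 of 5 were lower and none higher (LYRM7 -0.21, UQCC2 -0.19), for complex IV 7 of 22 were higher and 3 lower, and for complex V 5 of 7 were higher and 1 lower. The last list held the inhibitor ATPIF1 (0.18), the assembly factor TMEM70 (0.31) and the small associated subunits C14orf2 (0.24) and USMG5 (0.33). Each count stands against 22.8% of all genes called higher and 23.3% called lower.

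Of 13 tested genes for expression of the mitochondrial genome and for regulators of mitochondrial content, 3 were higher (23.1%, against 22.8% of all genes) and 4 lower, shares near the background. TFAM, which packages and transcribes mitochondrial DNA, rose by 0.35 (SE 0.05, edgeR adjusted p = 3.60e-08), from 168.9 ± 25.1 to 215.3 ± 23.1 CPM (mean ± SD, n = 30). GABPB1, a partner of the ETS factor GABPA, rose by 0.66, while POLG and POLRMT, the polymerases of mitochondrial DNA and RNA, had -0.50 and -0.41 and YY1 -0.23, all called. NRF1 (0.12), GABPA (0.05), PPRC1 (0.05) and ESRRA (0.06) were not called, and PPARGC1A, a coactivator of this programme in oxidative tissues, and COX4I2, the lung isoform of COX4I1, had no count in any library. Of 17 genes of the tricarboxylic acid cycle and pyruvate dehydrogenase, 4 were higher (23.5%), again near the background, among them MDH2 (0.30), PDHB (0.31) and FH (0.30), and SUCLG1 and SUCLA2 were lower. PDHA1 was the gene of these lists called in an exposure comparison, with 0.49 (adjusted p = 0.0432) for hemin plus kynurenine in Medium 2.

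Ribosomal proteins give a scale for these counts, since they too are short and abundant transcripts. Of 82 tested genes for cytosolic ribosomal proteins 76 were higher in Medium 2, with a median of 0.282, and of 76 for mitochondrial ribosomal proteins 20 were higher and 5 lower, with a median of 0.062. The members, with 54 of 81 and a median of 0.183, lay between both.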

How the data were processed

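Gene levels came from 3′-end RNA libraries of 60 HCT116 spheroid samples in 12 groups of 5. The authors deposited estimated counts per gene; per the submitters' processing notes the tools were STAR and Salmon 1.5.2, with UMI-tools 1.1.2, cutadapt 3.4 and FastQC 0.11.9 named beside them and no role given. Of the deposited estimated counts 10.1% were not whole, and they were rounded. Library totals ran from 1346135 to 3083231 (median 1901981), and no pair within a group agreed within sampling noise. How reads shared by near-identical genes were split is not given in the sources used here.

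Genes were kept by filterByExpr of edgeR 4.0.16 (minimum count 10, minimum total 15; R 4.3.3), which left 11298. One quasi-likelihood model with TMM scaling was fitted to all 60 libraries, with 48 residual degrees of freedom. Its two-sided F-tests compared media averaged over treatments and within each, exposures with untreated spheroids within each medium, and the difference of responses; p-values were adjusted over all tested genes with a threshold of 0.05. Alternatives were DESeq2 1.42.0, other scaling, no filter, plate row, the compared groups alone and each library left out. On data simulated for the averaged comparison (11298 genes), 88% of genes changed 1.25-fold were recovered, and 14% for untreated spheroids alone. The changed genes, 50 for each size of change, all had at least 50 CPM, and no other gene differed between groups. Recovery at lower levels, or with as many changed genes as were called here, was not simulated. Locations, transcript lengths, GC content and promoters were matched by current or older symbol to RefSeq (locations, promoters) and GENCODE (transcripts) annotation of GRCh38; 65 members carried a current symbol and 21 an older one.

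Members were all rows that match the naming rule. Named with values were, per complex, the 3 smallest and the largest p between media, members called elsewhere (smallest p first, up to 20), complex II, the c-ring genes and isoform pairs, and from each pathway list up to 4 called genes plus some named in every case; other members are named to describe a count. The members and lists were chosen with earlier results of these data known. Values of 1 member and of 1 gene of the pathway lists are not reported here, and that member is left out of the plots that name genes.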

Additional observations from a re-analysis of the deposited data

Results flagged for a closer look

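In 204 groups of 5 libraries (5 complex sums and 12 members in 12 groups), 12 held a library whose gap to its nearest neighbour was over 0.71 of the group's range; chance flags about 1 in 20 groups. Among sums these were complex I with hemin, at 5862 CPM in Medium 1 (well C2) and 5607 CPM in Medium 2 (A6), complex III untreated in Medium 1 at 3428 CPM (B1), and complex V untreated in Medium 2 at 7232 CPM (B5). ATP5G1 was high at 215.5 CPM with hemin plus kynurenine in Medium 1 (B4), 285.6 CPM with kynurenine in Medium 2 (A7) and 256 CPM with kynurenic acid in Medium 2 (D7). ATP5G3 (929 CPM) and SDHB (82.3 CPM) were low in the same library, F4 of hemin plus kynurenine in Medium 1. NDUFA13 was low with butyrate in Medium 2 at 42 CPM (G5) and high with kynurenine in Medium 2 at 70.3 CPM (A7). ATP5I reached 409 CPM with hemin plus kynurenine in Medium 2 (H7).

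For 16 members the response to the medium differed between hemin plus kynurenine and hemin (edgeR, adjusted p of 0.00856 to 0.0466), in a comparison chosen after seeing the data. The differences on the log2 scale were 1.06 for ATP5I, 0.99 for NDUFS6, 0.72 for UQCRFS1, 1.11 for UQCRBP1, 0.82 for NDUFB10, 0.61 for ATP5E, 0.63 for NDUFB2, 0.67 for UQCR11, 0.80 for ATP5O, 0.63 for NDUFA9, 0.71 for NDUFA6, 0.47 for COX7C, 0.62 for NDUFA1, 0.65 for COX7B and 0.43 for UQCRQ, and -0.76 for NDUFC1.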

How the results depend on the processing

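With library totals alone, members higher in Medium 2 numbered 29 averaged over treatments (54 in the model used), 0 untreated, 10 with hemin, 2 with kynurenine, 7 with kynurenic acid and 24 with hemin plus kynurenine, and lower ones 6 averaged and 15 over the 6 treatments (2 in the model used). Over all 11298 tested genes, this scaling gave 1315 higher and 4162 lower averaged over treatments, against 2577 and 2637 in the model used. No share over all genes is given for the other counts of this paragraph, so they do not set members apart from other genes. Without a filter, the untreated count was 0, that for kynurenine 5 and the exposure count 2. With plate row, lower counts were 2 averaged and 1 over treatments, and the untreated count was 2. Without wells B2 and A7, butyrate gave 7, lower calls over treatments 4 and exposures 10. DESeq2 gave 2 untreated, 7 exposure calls and 1 difference of responses. With the compared groups alone, the untreated count was 2, kynurenine 1, lower calls 5 and exposures 3; with RLE scaling exposures gave 0. Leaving out each library gave 49 to 60 higher and 0 to 2 lower averaged, 0 to 1 untreated, 4 to 10 butyrate, 16 to 23 hemin, 3 to 9 kynurenine, 10 to 24 kynurenic acid (11 without A4), 33 to 48 hemin plus kynurenine, 0 to 6 lower over treatments, 0 to 12 exposure calls (12 without G2, 7 without B2, 5 without A7, 4 without B1 or F4), 0 differences of responses, and 3 to 22 for the combination against hemin.

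Among named members the sign turned with library totals alone for COX7B (-0.043), NDUFA9 (-0.108) and ATP5I (-0.032), without B2 and A7 for UQCRC1 (0.002), and without 1 library for UQCRC1 (0.006), SDHA (0.001 to 0.002) and NDUFA9 (-0.015, -0.006, -0.004 for A4 and for G4, -0.003, -0.001 for A6 and for A7, and 0); none of these was called in the averaged comparison. With library totals alone the calls of ATP5G1 (0.007), UQCRQ (0.086), COX6A1 (0.014), COX6B1 (0.026) and NDUFA1 (0.11) were lost, and SDHA (-0.128) and UQCRC1 (-0.141) were called lower; SDHB was called in 15 of 66 settings. The cause was not tested. ATP5G3 averaged over treatments stayed called in all 66 settings, at 0.357 to 0.485. No paired analysis was possible because the columns of the table carry no replicate numbers, so the planned fit with a replicate block was not run. Untreated spheroids alone could show small changes poorly: among genes of at least 50 CPM, 48% of simulated 1.5-fold changes were recovered, against 98% averaged over treatments.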
